A study of Mus musculus with 6 samples.

Results

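Tgfbr1 encodes the type I receptor for transforming growth factor beta (TGF-beta), and its label was followed in RNA-seq of hippocampal microglia, the resident macrophages of the brain. It is 1 of the 54590 features of the count table. It was chosen by its counts, which are among the highest off the mitochondrial chromosome, so its level and rank are a description with no test. The mice were 3 weeks old and all carried Tmem119-tdTomato+/-, a reporter in which the red fluorescent protein tdTomato marks cells that use the microglial gene Tmem119. There were 3 libraries of a control group (Ctrl) and 3 of a group labelled FGR, and the series title speaks of growth restriction in the womb. RNA of 3000 microglia went into each library. The labels do not say whether the libraries of a group stem from separate or pooled animals, and p-values cover only their spread, which may be technical. Library totals ran from 1553588 to 11364316 counts. In either group, libraries 1 and 2 differed less than any other pair of libraries, and far less over features with many counts. They were counted as 1 sample, which leaves n = 2 per group.

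TGF-beta is released from cells in a latent form, and once freed it binds a type II receptor that recruits and phosphorylates the type I receptor encoded by Tgfbr1. The activated type I receptor phosphorylates Smad2 and Smad3, which enter the nucleus with Smad4 and act on target genes, while Smad7 and the ubiquitin ligases Smurf1 and Smurf2 shut the receptor down. In the brain this pathway is known as a signal that microglia need to acquire and keep their mature identity.

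Tgfbr1 (ENSMUSG00000007613) lies on the plus strand of chromosome 4 at 47353222 to 47414931 in the GENCODE M21 annotation of GRCm38 (mm10), the build named in the submitters' processing notes. RefSeq's annotation of the same build, GRCm38.p6, places its start at the same base, 47353222, and its end at 47414926. Its exons cover 6534 bases in 5 annotated transcripts. The longest of these has 9 exons and 5756 bases, of which the last exon holds 4280 bases or 74.4%. The longest exon made up 65.5% of the exon length of Tgfbr1, against a median of 47.8% over protein-coding features. Bowtie2, named in the processing notes, does not split a read across introns, and what this does to the count of Tgfbr1 was not tested. On either strand, 0 other annotated features overlapped Tgfbr1.

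The sequence of 250 bases just upstream of the annotated start of Tgfbr1 is shown, called its promoter here by position only. It covers chr4:47352972-47353221 of GRCm38.p6 on the plus strand, as given by RefSeq, with matches to a GC box (GGGCGG) or a CCAAT box (CCAAT) in capitals, searched on both strands:
Tgfbr1: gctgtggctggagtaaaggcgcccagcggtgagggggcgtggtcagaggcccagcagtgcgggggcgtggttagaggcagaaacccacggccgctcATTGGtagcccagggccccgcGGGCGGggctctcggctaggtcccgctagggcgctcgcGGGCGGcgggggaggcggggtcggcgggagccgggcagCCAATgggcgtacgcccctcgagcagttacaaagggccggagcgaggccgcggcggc
These 250 bases were 74.8% G or C and held 29 CpG dinucleotides, against medians of 52.4% and 6 over 32851 mouse promoters of the same length. The GC box had 2 matches, a motif found in 32.7% of those promoters, and the CCAAT box had 2 matches, a motif found in 33.8%. The TATA box (TATAAA) had 0 matches in this window and was found in 12.4% of promoters. The palindromic Smad box (GTCTAGAC) had 0 matches and was found in 0.167%.

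Labels in this table may be displaced from the reads of their gene, so the labels around Tgfbr1 were examined first. The 6 libraries together held 24172 counts per kb of exon under Tgfbr1. The 17 other protein-coding features within 1 Mb held 15.1 to 2212 counts per kb, with a median of 455. The nearest were Col15a1, a basement membrane collagen 40.1 kb upstream with 1181 counts per kb, and Alg2, a mannosyltransferase of protein glycosylation 50.1 kb downstream with 625. Sec61b, a subunit of the protein translocation channel, had 72.4 counts per kb. Tgfbr1 thus stood 10.9 times above Anp32b, the highest of these neighbours, and 7.07 times above Gm12435, a processed pseudogene that was the highest of all 34 other features in this window. Upstream of Tgfbr1, Anks6 had 1047 counts per kb and Galnt12 1338. Trmo (393), Nans (464), Trim14 (455) and Coro2a (455) were lower, and Hemgn (15.1), Tbc1d2 (17.1) and Gabbr2 (36.6) were lowest. Downstream, Nr4a3 had 231 counts per kb, Stx17 388, Erp44 513 and Invs 225. All 34 together held 46087 counts, against 157940 under Tgfbr1 alone.

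Labels of chromosome 4 for genes that microglia or all cells use differed widely in their counts on both sides of Tgfbr1. Lyn, a Src family kinase of myeloid cells 43.7 Mb upstream, had 8388 counts per kb. Tln1, which links integrins to actin and lies 3.82 Mb upstream, had 4393, and Abca1, the cholesterol exporter 5.68 Mb downstream, had 6769. These 3 genes were chosen after their values were seen. Other labels of the chromosome were higher than all 3, among them Gm11808 at 16796 counts per kb, the second highest. Pnrc1, within the 20 Mb before Tgfbr1, had 14306, and Tex46, between 80 and 100 Mb downstream, had 11905. Of the cytosolic ribosomal proteins, Rps20, 43.5 Mb upstream, had 878 counts per kb, whereas Rps6, 39.5 Mb downstream, had 15.8, Rpl11 149 and Rpl22 29.5. Of the upstream labels of oxidative phosphorylation, the subunit Ndufb6 had 187 counts per kb, near that of Rpl11. The assembly factors Ndufaf6 and Ndufaf4, which are not subunits, had 188 and 212. The downstream subunits Ndufs5 and Uqcrh had 12.8 and 4.04. The complement genes C1qa, C1qb and C1qc, abundant in microglia and about 89.5 Mb downstream, had 2.88, 12.9 and 6.73 counts per kb. The median over all protein-coding labels was 122 counts per kb in the 20 Mb before the start of Tgfbr1 and 25.1 in the 20 Mb after it, Tgfbr1 included. It was 16.7 between 20 and 40 Mb downstream, where 0 of 45 labels reached 1000 counts per kb, against 22 of 171 in the 20 Mb before Tgfbr1. The profile did not stay low, since between 100 and 120 Mb downstream the median was 101. Positions in GRCm39 were not analysed here, so whether Tgfbr1 lies at the same place in both builds was not tested. The levels below, those of Tgfbr1 included, are therefore levels of labels.

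**Figure D1:**
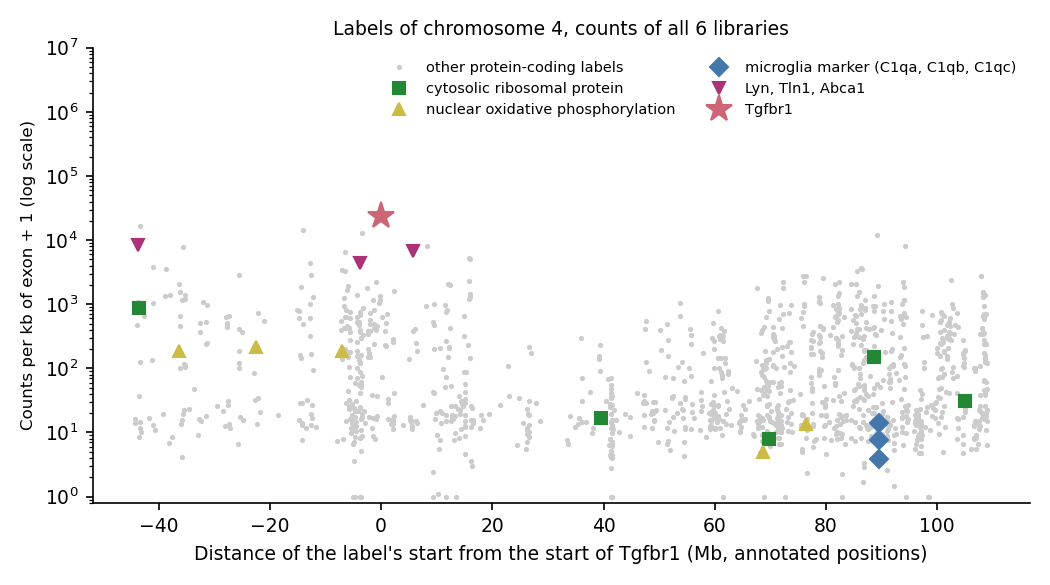
Counts per kb of exon plus 1 (log scale, all 6 libraries summed) for each protein-coding label of chromosome 4, against the distance of its annotated start from that of Tgfbr1 in Mb. Tgfbr1 is the highest point at 24172 counts per kb, and the next is Gm11808 at 16796. Lyn, Tln1 and Abca1 lie below both, while Rps6 and the C1q labels far to the right lie under 20.

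Tgfbr1 took close to the same share of the counts in 5 of the 6 libraries. It had 16013, 8204 and 53734 counts in Ctrl libraries 1, 2 and 3, and 17841, 9632 and 52516 in FGR libraries 1, 2 and 3. As counts per 1000000 of the library total (CPM) these were 5387, 5281 and 5267 in Ctrl and 5313, 5401 and 4621 in FGR. The groups overlapped, and FGR library 3 was the lowest of all. Its share of the counts was 0.462% with a 95% Wilson interval of 0.458% to 0.466%, and the intervals of the other libraries lay between 0.517% and 0.551%. These intervals cover counting error only. With the near copies counted once, Tgfbr1 stood at 5300 ± 46.9 CPM in Ctrl and 4989 ± 520 CPM in FGR (SD, n = 2), and the coefficient of variation over the 4 samples was 6.82%. In bulk RNA of this kind, fewer cells with the transcript and less transcript per cell cannot be told apart.

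**Figure D2:**
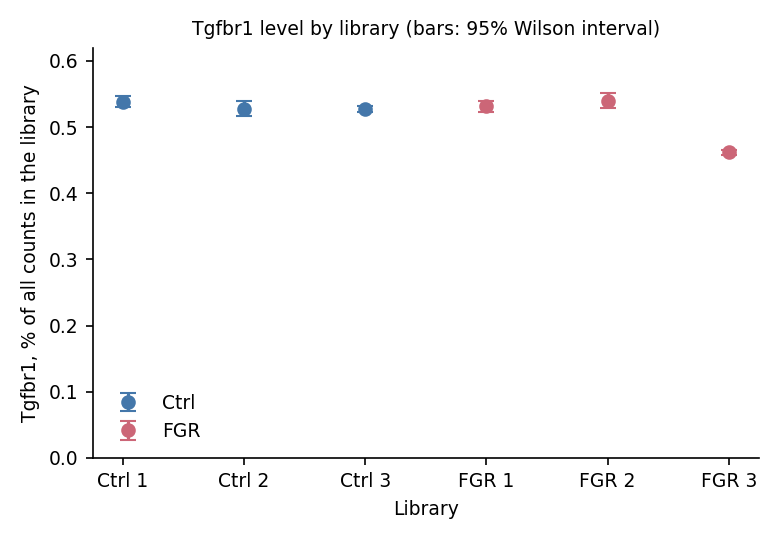
Tgfbr1 as a percent of all counts in each of the 3 Ctrl and 3 FGR libraries, with 95% Wilson intervals as bars. Ctrl libraries and FGR libraries 1 and 2 lie between 0.527% and 0.540%, and FGR library 3 lies at 0.462%.

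By count over all 6 libraries, Tgfbr1 ranked 2 among all features off the mitochondrial chromosome, with 157940 counts or 0.506% of the total. The feature labelled Frmd8 ranked 1 with 1375516 counts, and that labelled Dhx30 was next below with 154490. In single libraries Tgfbr1 ranked 2 or 3. Dhx30 stood above it in Ctrl libraries 1 and 2 (10781 and 11037 CPM) and in FGR library 3 (5645 CPM). Among all features, mitochondrial ones included, Tgfbr1 ranked between 4 and 6 in each library. Per kb of exon it ranked 3 of 21954 protein-coding labels off the mitochondrial chromosome, at 1094 times their median of 22.1 counts per kb, and its rank was 3 or 4 in every library. The 13 mitochondrially encoded mRNAs included, it ranked between 12 and 14. On chromosome 4 it took 6.47% to 7.41% of all counts in a library.

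The order around Tgfbr1 was compared in each library as CPM per kb, at which Tgfbr1 stood at 824, 808 and 806 in Ctrl and 813, 827 and 707 in FGR. The label next above, Fbxo48, was higher than Tgfbr1 in 6 of 6 libraries, at 934, 896 and 1086 in Ctrl and 867, 861 and 824 in FGR. The label next below, Pecr, was at 418, 462 and 874 in Ctrl and 242, 274 and 990 in FGR. Pecr was thus under Tgfbr1 in libraries 1 and 2 and above it in library 3 of both groups, so this order was not settled. Fitm2 was lower than Tgfbr1 in 6 of 6 libraries, at 597 to 701 in Ctrl and 652 to 730 in FGR. Dhx30, next below by raw count over all 6 libraries, varied far more than Tgfbr1, from 246 to 1040 CPM per kb in Ctrl and from 261 to 532 in FGR.

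**Figure D3:**
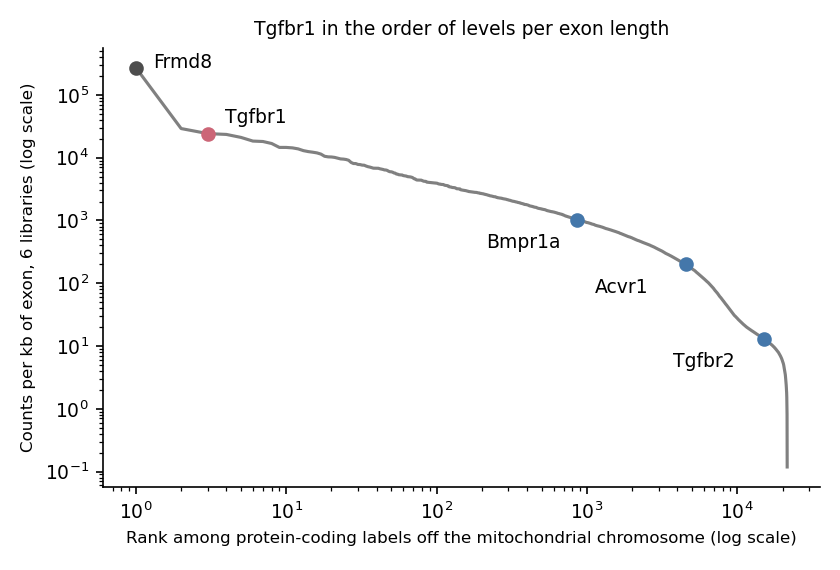
Counts per kb of exon (log scale, all 6 libraries summed) of each protein-coding label off the mitochondrial chromosome against its rank (log scale). Tgfbr1 has rank 3 at 24172 counts per kb, below Frmd8, and the other receptor labels shown lie from 1034 (Bmpr1a) down to 13.1 (Tgfbr2).

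No difference of Tgfbr1 between FGR and Ctrl was detected. On the TMM scale, which corrects library totals for composition, Tgfbr1 stood at 4865 CPM in Ctrl libraries 1 and 2 summed and 5544 in Ctrl library 3, against 5492 and 4913 in FGR. The groups overlapped fully, with means of 5205 ± 480 in Ctrl and 5202 ± 409 in FGR (SD, n = 2). The edgeR quasi-likelihood test on the near copies summed gave a log2 fold change of -0.00076 (SE 0.27) with a Benjamini-Hochberg adjusted p of 0.9999 over 24149 features. The 95% interval of the fold ran from 0.669 to 1.49, so a change within these bounds could not be seen with 2 samples per group. The test called 0% of all features, 0 higher and 0 lower in FGR. An unadjusted p under 0.05 was reached by 281 features, where evenly spread p-values would give 1207, and DESeq2 and limma-voom also called 0. An exact two-sided permutation test of the 6 libraries' CPM, 3 against 3 and with the near copies as separate, gave p = 0.9, where the smallest p it can give is 0.1.

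The sets of libraries differed in what they showed. Between libraries 3 of the groups, FGR was lower by both scales, with a log2 ratio of FGR over Ctrl of -0.19 on library totals and -0.17 on the TMM scale. Between libraries 1 and 2 summed, the ratio was -0.0019 on library totals and 0.17 on the TMM scale, so that direction depended on the scaling. The TMM factor of Ctrl libraries 1 and 2 summed was 1.12, against 0.948 to 0.982 in the other samples. Both scales use the same counts of Tgfbr1, and they differ only in these factors and in totals that leave out filtered features. With all 6 libraries scaled separately, the factors of Ctrl libraries 1 and 2 were 1.06 and 1.04. Over all features the median log2 fold change was -0.03 with TMM and -0.13 with library totals, and that of Tgfbr1 on library totals was -0.10.

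**Figure D4:**
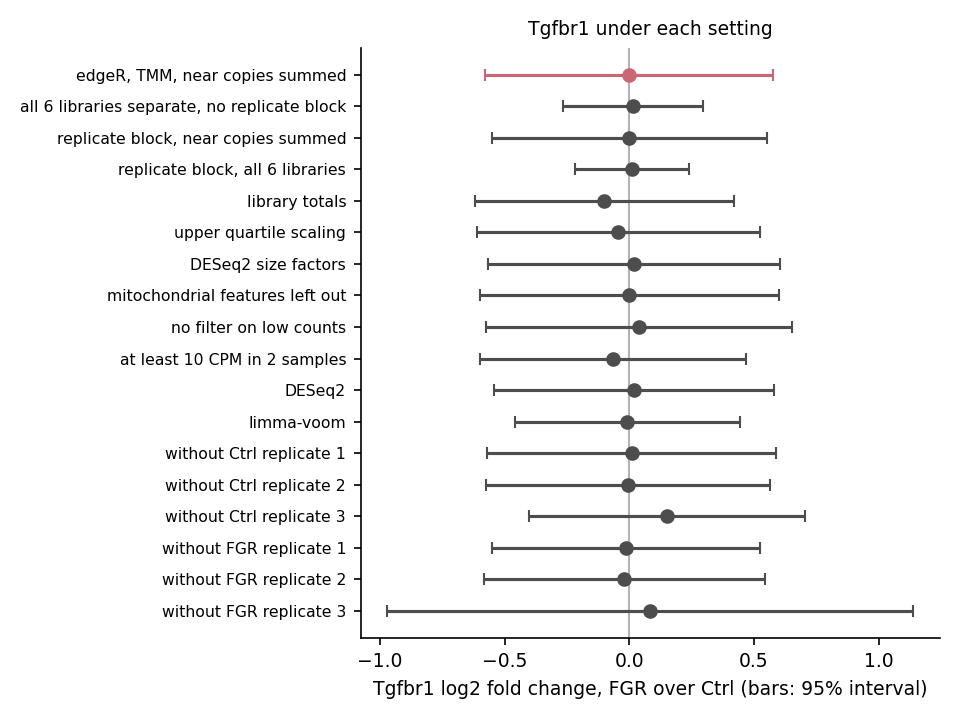
Log2 fold change of Tgfbr1, FGR over Ctrl, with its 95% interval under each of 18 fits. Every interval includes 0, and the estimates run from -0.10 with library totals to 0.15 without Ctrl replicate 3.

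Tgfbr1 held nearly all counts under the type I receptor labels of its family: 94.6% of 167001. Bmpr1a, a receptor for bone morphogenetic proteins (BMPs), was next at 1034 counts per kb, 23.4 times below Tgfbr1. Acvrl1, a receptor known from vessel lining cells, had 204 and Acvr1, a BMP and activin receptor, had 199. The activin and nodal receptors Acvr1b and Acvr1c had 24.7 and 42.1, and the BMP receptor Bmpr1b had 27.5. None of the 7 passed the test, against 0% of all features. Their log2 fold changes were -0.16 (Acvr1), -0.42 (Acvr1c), 0.21 (Acvrl1), 0.13 (Bmpr1a) and -0.22 (Bmpr1b). Acvr1b had 1.31 (SE 0.67), at 3.70, 1.29 and 1.67 CPM in Ctrl and 6.55, 5.61 and 4.14 in FGR. It rested on 109 counts in all and its unadjusted p in edgeR was 0.071. In CPM of the 6 libraries, the near copies taken as separate, the groups did not overlap for Acvr1b, higher in FGR, and for Acvr1, lower in FGR, so for 2 of 7 labels, against 10.3% of all features tested (2.75% higher and 7.57% lower in FGR).

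The partner of Tgfbr1 had hardly any counts under its label. Tgfbr2, the type II receptor that binds TGF-beta, had 24, 6 and 30 counts in Ctrl and 18, 7 and 22 in FGR, which is 13.1 counts per kb against 24172 for Tgfbr1. Its log2 fold change was -0.39 (SE 0.70). Among the other type II receptors, the BMP receptor Bmpr2 had 338 counts per kb, Amhr2 of the anti-Mullerian hormone 322 and the activin receptors Acvr2a and Acvr2b 147 and 7.38. The co-receptors Eng and Tgfbr3 had 150 and 7.03. Of these 7 labels 6 were tested and 0 passed, with log2 fold changes from -0.39 to 0.30. The groups did not overlap in CPM for 2 of the 6, Bmpr2 (-0.13) and Acvr2a (-0.34), both lower in FGR, as were 7.57% of all features. Whether these counts are reads of the named genes was not tested, so the gap between both TGF-beta receptors is a gap between labels.

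**Figure D5:**
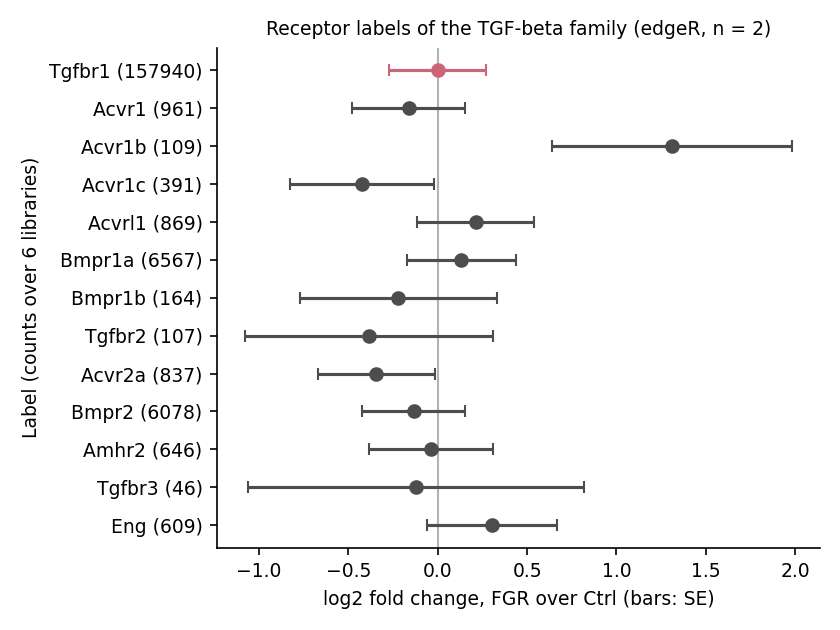
Log2 fold change, FGR over Ctrl, with its SE, of the 13 tested receptor labels, each with its counts over 6 libraries in brackets. Tgfbr1 lies at 0 with an SE of 0.27, and the label farthest from 0 is Acvr1b at 1.31 with 109 counts.

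The ligands were scarce under their labels: Tgfb1 had 44 counts, Tgfb2 53 and Tgfb3 168 over all 6 libraries. Of the 12 labels for storage and release of the ligand, 11 were tested and 0 passed. Ltbp2 and Ltbp3, of the family of latent TGF-beta binding proteins, had 964 and 828 counts per kb, with log2 fold changes of 0.39 (SE 0.31) and 0.36 (SE 0.28). Ltbp4 had 292 counts per kb and Ltbp1 38.6, with log2 fold changes of -0.02 and -0.05. The integrin subunits Itgb6 and Itgav, which take part in freeing the ligand, had 200 and 104 counts per kb, at -0.16 and 0.06 on the log2 scale.

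Downstream of the receptor, 5 of 7 labels for Smads and their anchor Zfyve9 were tested and 0 passed, with a median log2 fold change of -0.19. Smad3, which Tgfbr1 phosphorylates, had 1083 counts per kb and a log2 fold change of -0.04 (SE 0.31), while Smad2 had 22 counts in all and was not tested. Zfyve9 had 256 counts per kb (0.26 on the log2 scale) and Smad1, of the BMP branch, had 180 (-0.19). Smad4, the shared partner, had 30.7 (-0.31) and Smad5, also of the BMP branch, had 13.7 (-1.17, SE 0.72). All 14 labels for inhibitors were tested and 0 passed, with a median of -0.18. The ubiquitin ligases Smurf1 and Nedd4l had 1081 and 321 counts per kb, with log2 fold changes of -0.09 and -0.11. The inhibitory Smad7 had 232 (-0.27), and the co-repressors Tgif2, Ski and Skil had 630 (0.49), 380 (0.16) and 77.8 (0.15). In the branch through the kinase TAK1, 0 of 5 labels passed. Map3k7, which encodes TAK1 and lies on chromosome 4, 15.4 Mb upstream of Tgfbr1, had 1279 counts per kb and a log2 fold change of 0.20 (SE 0.29). Tab1 and Traf6, which act with TAK1, had 40.8 and 22.6 counts per kb, at 0.06 and -0.03.

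Genes known to respond to TGF-beta did not pass the test either. Of 17 labels for targets in many cells, 13 were tested and 0 passed, with a median log2 fold change of 0.23. Klf10, an early TGF-beta response factor, had 987 counts per kb and a log2 fold change of 0.51 (SE 0.29). Id2, an inhibitor of differentiation, had 468 (0.07), the AP-1 subunit Junb 237 (0.23) and Tgfb1i1 139 (0.14). Fibronectin, Fn1, had 55.5 (-0.13). Of 18 labels for microglial genes known to depend on TGF-beta, 14 were tested and 0 passed, with a median of -0.11. Sall1, a transcription factor of microglial identity, had 815 counts per kb (0.08), and the purinergic receptors P2ry13 and P2ry12 had 374 (0.02) and 343 (-0.31). Siglech had 178 (-0.37), the fructose transporter Slc2a5 161 (-0.06) and the adhesion receptor Adgrg1 133 (-0.20). Of 20 labels for genes known to go up when microglia lose TGF-beta signalling, 15 were tested and 0 passed, with a median of 0.34. Itgax, an integrin subunit, had 1138 counts per kb (0.44, SE 0.34), the lysosomal protein Cd68 771 (0.53, SE 0.32) and the cytokine Tnf 275 (0.55, SE 0.37). Gpnmb had 147 (-0.03), the class II antigen H2-Aa 48.7 (1.01, SE 0.56) and the lipase Lpl 17.8 (-0.29). Over all 110 pathway labels, 93 were tested, with 44 log2 fold changes above 0, 49 below and a median of -0.01, against -0.03 over all features. The 1 label with an unadjusted edgeR p under 0.05 (0.0494) was Snai1, a transcription factor among the targets, at 0.93 (SE 0.43), named after its value was seen. That is 1.08% of the 93, against 1.16% of all features. The groups did not overlap in CPM for 13 of the 93, 6 higher and 7 lower in FGR, which is 14.0% against 10.3% of all features. Among the named labels these included Ltbp3, Tgif2, Cd68 and Snai1, higher in FGR, and Itgb6 and Smad7, lower in FGR.

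Tgfbr1, which was chosen for its high counts, was among the steadier features across samples, in a comparison not matched for level. The SD of its log2 TMM-scaled CPM over the 4 samples was 0.10, against a median of 0.25, and 93.9% of 2911 features off the mitochondrial chromosome with a mean of at least 50 CPM had a larger SD. The pattern most like it, by the root mean square difference of centred log2 CPM over the 4 samples, was that of Lrp6, a co-receptor of Wnt signalling, at 0.0079. Next were Tmcc1 at 0.017, Ccnjl at 0.018, Wasl at 0.018 and Acap2 at 0.023, against a median of 0.21. On the TMM scale Lrp6 stood at 240 and 276 CPM in Ctrl and 275 and 243 in FGR. Each time libraries 1 and 2 summed come before library 3. Tgfbr1 had the same small swing on this scale. On library totals Tgfbr1 stood at 5350 and 5267 CPM in Ctrl, so its rise to Ctrl library 3 was seen only on the TMM scale. With 4 samples, a likeness of this kind is a description only.

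The markers of microglia and of other cells could not check the cell type here. Many had few counts under their labels, and labels may be displaced from the reads of their gene. Of 18 microglial marker labels, 9 had under 50 counts over all libraries, among them Tmem119 with 29, and their summed level was 358 to 376 CPM in Ctrl and 319 to 363 in FGR. The endothelial and mural list, cells that also use Tgfbr1, summed to 355 to 404 CPM in Ctrl and 350 to 400 in FGR. Of its 11754 counts, 8323 were under Pecam1. A log2 fold change below 0 was found for 7 of its 9 labels (median -0.64, 0 called), against 12757 of 24149 features tested. The same held for 6 of 8 neuron labels and for 5 of 7 labels of border-associated macrophages (median -0.38, 0 called). Above 0 were 5 of 7 oligodendrocyte labels and 6 of 11 microglial marker labels. The ranges of the summed level in Ctrl and FGR were 99.9 to 134 and 91.4 to 110 CPM for border-associated macrophages. They were 16.2 to 32.0 and 12.1 to 20.7 for monocytes and neutrophils, and 67.3 to 98.2 and 68.2 to 75.7 for lymphocytes. They were 327 to 567 and 354 to 501 CPM for astrocytes, 219 to 304 and 211 to 321 for oligodendrocytes, 1202 to 1346 and 1132 to 1320 for neurons, and 1.67 to 4.51 and 1.67 to 2.38 for erythroid cells. Of the 39404 counts of the neuron list, 21921 were under Gad2 and 13888 under Slc17a7. Whether these are reads of the named genes was not tested. The summed levels of both groups overlapped in every list of other cell types, and the part of other cells in the level of Tgfbr1 was not tested. Mitochondrial features took 15.9% to 16.4% of the counts in Ctrl and 17.2% to 18.3% in FGR. Without them in the total, Tgfbr1 took 0.627% to 0.640% in Ctrl and 0.641%, 0.658% and 0.566% in FGR.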

How the data were processed

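The deposited values are raw read counts, whole numbers per Ensembl gene ID in 1 table. Per the labels' protocols, library construction followed SMARTer Stranded Total RNA-Seq Kit v2 (strand-marking). The submitters' processing notes list HTSeq 2.0.3, Bowtie2 2.4.5, Trim Galore 0.6.5, DESeq2 1.32.0 and SAMtools 1.3.1 with the build mm10. No label names the annotation or the strand setting. GENCODE M21 gave positions and exon lengths for 53706 of 54590 IDs, and 0.0459% of the counts lay outside them.

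CPM, ranks and tests were computed here in R 4.3.3 (DESeq2 1.42.0, limma 3.58.1, edgeR 4.0.16) and Python 3.11.15 (scipy 1.17.1, pandas 2.3.3, numpy 2.4.6, matplotlib 3.10.9). Over features with 1000 to 9999 counts, the chi-square per feature was 2.63 between Ctrl libraries 1 and 2 and 2.77 between FGR libraries 1 and 2, and at least 20.4 in every other pair. Over features with 20 to 99 counts the gap was small, at 2.35 and 2.37 against at least 3.07. Libraries 1 and 2 were therefore summed to 1 sample, and edgeR's quasi-likelihood test (TMM, filterByExpr, robust) was fitted on all features. SE is the log2 fold change over the square root of F, and calls needed an adjusted p (Benjamini-Hochberg) under 0.05. Deviations from the group mean correlated at 0.21, 0.17 and 0.48 between libraries of the same number. Ctrl library 1 also went with FGR library 2 (0.22), so the numbers share the set, libraries 1 and 2 or library 3. The replicate block used this set with the near copies summed, and the library number with all 6 libraries. The gene, the lists and the rules were chosen with earlier results of these data known. Named were list members with at least 100 counts, up to 6 a list, all receptors, protein-coding neighbours within 1 Mb, and the 5 features of most like pattern. Also named were the labels next to Tgfbr1 in rank and known genes of chromosome 4. Tgfb1, Tgfb2, Smad2 and Tmem119 (under 100 counts), Dhx30, Snai1, Gm11808, Pnrc1 and Tex46 fall outside these rules. They were named after their values were seen. Alternatives changed the scaling, filter, tool, block or libraries. Single labels that these rules name but that are withheld are not reported here.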

Additional observations from a re-analysis of the deposited data

How the results depend on the processing

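The log2 fold change of Tgfbr1 was close to 0 and took both signs, 9 above and 8 below 0 over 17 alternatives, and its adjusted p was at least 0.858 in all of them. It lay above 0 with all 6 libraries separate (0.014), DESeq2 size factors (0.020), no filter on low counts (0.040) and DESeq2 (0.020). With the replicate block it was 4.1e-05 with the near copies summed and 0.011 with all 6 libraries, and the block changed no call. Features with an unadjusted edgeR p under 0.05 numbered 938 and 1329 in these fits, against 281 in the reported fit. Evenly spread p-values would give 1207 and 804 in the block fits. The fit with 1329 counts the near copies as separate samples, so its p-values cannot be set beside those of the reported fit. Leaving out 1 library in turn gave -0.021 to 0.15, the highest without Ctrl library 3. Features called numbered 0 in the reported fit, 1 with no filter on low counts, and 0 to 27 with 1 library left out, where 27 came without Ctrl library 3, which left Ctrl with the near copies as its only sample and that lone sample assumed to vary like FGR. The mean level of 5145 CPM over 4 samples became 6195 with mitochondrial features left out of the total. It was 5104 to 5319 with 1 library left out. The rank per kb of exon among protein-coding labels, 12 with mitochondrial ones included, was 14 per kb of the longest transcript and 25 among all annotated features. No member of the pathway lists was called under the 4 alternatives run for them. With 2 samples per group an exact test cannot give a p under 0.333.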
